A study of Mus musculus with 6 samples.

Results

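Aire, the transcription factor Fezf2 and 7 genes that act with, on or beside Aire were followed through RANKL stimulation and loss of Jmjd6 in cultured mouse fetal thymic stroma. The 9 genes (Aire, Fezf2, Chd4, Hipk2, Deaf1, Sirt1, Prkdc, Top1 and Dnmt3l) were chosen by name, and each matched 1 of the 22513 entries of the gene table, with no other gene in the entry. All 9 had an average over the 6 libraries of 0.1 FPKM or more (fragments per kilobase of transcript, scaled to the mapped fragments of the library), the filter on low values, which left 15894 entries for testing.

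All libraries came from C57BL/6 fetal thymic lobes taken at E15.5 and cultured for 4 days with 2-DG, deoxyguanosine, used to deplete lymphoid cells from the stroma. The 4 groups were wild-type (WT) stroma without stimulation (1 library), Jmjd6-/- stroma without stimulation (1 library), WT stroma stimulated for 4 days with RANKL, the ligand of the receptor RANK (2 libraries), and Jmjd6-/- stroma stimulated in the same way (2 libraries). Jmjd6-/- embryos lacked the lysyl hydroxylase Jmjd6 in every tissue, not in the epithelium alone. The series calls the repeats technical duplicates and the study calls them samples, so p-values measure the spread between these libraries, which may be technical. The unstimulated groups have no replicate.

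The stroma is a mixture of cells, and in such bulk RNA fewer cells of a type and less RNA per cell cannot be told apart. The targeted gene followed its labels: Jmjd6 stood at 26.3 FPKM in unstimulated WT stroma and at 25.9 and 32.5 FPKM with RANKL, against 1.32, 1.96 and 1.78 FPKM in the 3 Jmjd6-/- libraries. The estimated depth was between 15600000 and 30200000 fragments per library. Of the T cell markers, the summed level of 6 genes was 1.09 to 3.50 FPKM, and Cd3e was listed at 0 in every library but 1. Of the 3 tested, 1 was called higher with RANKL and none lower. This was Lck, at 0.610 and 0.390 FPKM in unstimulated WT and Jmjd6-/- stroma and 0.728 to 1.91 FPKM with RANKL. Of 9 medullary epithelial markers with an entry, 6 were higher with RANKL and none lower, with a summed level of 1821 and 2246 FPKM without RANKL and 1441 to 2318 FPKM with it. Of 6 cortical markers, 2 were lower and none higher, with a summed level of 12790 and 13470 FPKM without RANKL and 8273 to 10200 FPKM with it. Of 6 proliferation markers, 5 were higher, with summed levels of 47.2 and 61.4 FPKM without RANKL and 95.2 to 164 FPKM with it. Macrophage markers were present in every library. Of 6, 2 were lower with RANKL and none higher, with sums of 549 and 603 FPKM without RANKL and 501 to 670 FPKM with it. Over all genes tested, 10.5% were higher with RANKL and 4.11% lower. Among the calls lost with no filter on low values were those of Lck and of the cortical and macrophage markers. Those of the proliferation markers Top2a, Ccnb1 and Cdk1 were lost there too, while that of Birc5 held in all 15 alternatives. Between genotypes with RANKL, 2 of 7 mesenchyme markers and 2 of 5 endothelium markers were called lower in Jmjd6-/- stroma and none higher. Over all genes tested, 2.34% were called in either direction, and each of these marker calls was lost with no filter on low values. With RANKL the mesenchyme sums were 407 and 393 FPKM against 697 and 635 FPKM in WT. The endothelium sums were 4.62 and 4.10 FPKM against 12.5 and 12.3 FPKM. Without RANKL the mesenchyme sums were 304 FPKM in Jmjd6-/- and 654 FPKM in WT stroma, and the endothelium sums 8.31 and 22.4 FPKM. The part of these markers in the results below was not tested.

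Medullary thymic epithelial cells (mTECs) display proteins of many other tissues to developing T cells, so that self-reactive T cells are removed. Aire, a chromatin-associated regulator, switches on a large share of these genes, and RANK signalling in mTECs induces Aire. Fezf2, a zinc finger factor first known from forebrain development, drives a further set of such antigens. Several proteins are known to bind or modify Aire. Chd4 is the ATPase of the NuRD chromatin remodelling complex, Top1 is a DNA topoisomerase that relaxes supercoils, and Prkdc is the catalytic subunit of the DNA-dependent protein kinase. Hipk2 is a nuclear kinase, Sirt1 a protein deacetylase, and Deaf1 a transcription factor that shares the SAND domain with Aire. Dnmt3l, a catalytically inactive cofactor of the de novo DNA methyltransferases, is the neighbour of Aire on the opposite strand.

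The bases ahead of the RefSeq starts (GRCm38.p6) are shown for the 4 members that were called higher with RANKL. Their log2 differences ran from 0.82 (Sirt1) to 7.65 (Aire), and only Sirt1 was already well expressed before stimulation. Each sequence is 250 bases, 5′ to 3′ on the gene's own strand and ending just before the start. Capitals mark matches, on either strand, to TATAAA, to GGGCGG or to the NF-kB consensus.

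Aire, chr10:78043611-78043860, minus strand: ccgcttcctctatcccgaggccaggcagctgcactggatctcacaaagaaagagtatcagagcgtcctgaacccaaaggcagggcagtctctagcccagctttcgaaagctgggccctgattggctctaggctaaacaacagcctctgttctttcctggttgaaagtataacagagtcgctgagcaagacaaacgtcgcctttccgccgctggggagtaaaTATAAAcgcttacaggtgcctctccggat

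Dnmt3l, chr10:78042037-78042286, plus strand, the most upstream of 3 starts: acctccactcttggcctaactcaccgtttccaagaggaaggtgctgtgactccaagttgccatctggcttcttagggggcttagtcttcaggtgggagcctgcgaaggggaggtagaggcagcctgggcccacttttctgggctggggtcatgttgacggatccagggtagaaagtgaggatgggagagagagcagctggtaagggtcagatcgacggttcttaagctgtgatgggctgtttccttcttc

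Fezf2, chr14:12345866-12346115, minus strand: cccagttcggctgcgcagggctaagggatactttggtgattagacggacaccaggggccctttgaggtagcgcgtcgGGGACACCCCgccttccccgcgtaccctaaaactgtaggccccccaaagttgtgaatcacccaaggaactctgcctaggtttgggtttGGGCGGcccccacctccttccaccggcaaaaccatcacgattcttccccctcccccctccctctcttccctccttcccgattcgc

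Sirt1, chr10:63339036-63339285, minus strand: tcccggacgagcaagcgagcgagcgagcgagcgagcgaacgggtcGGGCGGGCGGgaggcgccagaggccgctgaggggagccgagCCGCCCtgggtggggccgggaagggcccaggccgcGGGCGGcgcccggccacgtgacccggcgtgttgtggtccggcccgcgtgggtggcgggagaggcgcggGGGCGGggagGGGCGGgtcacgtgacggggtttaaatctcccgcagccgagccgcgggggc

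The Aire sequence held TATAAA from base -29 to base -24 before the start, a match that 12.4% of 32851 RefSeq start windows of this length hold. It held neither GGGCGG (32.7% of windows) nor the NF-kB consensus (3.9% of windows). The Fezf2 sequence held 1 GGGCGG and 1 match to the NF-kB consensus, and the Dnmt3l sequence held none of these motifs. CCAAT, which is not in capitals, was also searched on both strands, and only the Aire window of the 8 members matched held it, at bases -131 to -127 (33.8% of all windows hold it). Sirt1 held 6 matches to GGGCGG, of which 2 overlap each other. The windows also differed in CpG dinucleotides, with 11 in Aire, 14 in Fezf2, 5 in Dnmt3l and 39 in Sirt1, against a median of 6 over all windows. Of the members not shown, Chd4, Hipk2, Deaf1 and Top1 each held at least 2 matches to GGGCGG. Prkdc had no matching window. A match describes letters only, and a window without one says nothing of binding elsewhere.

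The first question was which of these genes responded to RANKL. The test compared the 4 RANKL libraries with the 2 unstimulated libraries with genotype as a term, in limma on log2(FPKM + 0.1) with Benjamini-Hochberg adjustment over all 15894 genes. Because 0.1 FPKM was added, log2 differences understate the change of genes near zero. Of the 9 genes, 4 rose and none fell, where 10.5% of all genes tested rose and 4.11% fell. In the same 4 genes every RANKL library lay above both unstimulated libraries, a pattern seen in 18.9% of the genes tested.

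Aire was near zero before stimulation, at 0.142 FPKM in WT and 0.473 FPKM in Jmjd6-/- stroma, roughly 7.7 and 13.2 fragments by the depth estimate. With RANKL it stood at 78.0 and 79.7 FPKM in WT and at 75.1 and 67.1 FPKM in Jmjd6-/- stroma. The RANKL and unstimulated libraries were far apart in both genotypes. The log2 difference was 7.65 ± 0.29 (SE, adjusted p = 3.96e-05), and over the 15 alternative settings it ran from 5.87 to 8.35 with an adjusted p of at most 0.0157. Aire, the 8th of the 9 genes by level without RANKL in either genotype, was the highest of them with RANKL in both. In WT RANKL stroma its mean exceeded 95.3% of all entries.

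Fezf2 was detected without RANKL, at 1.54 FPKM in WT and 1.20 FPKM in Jmjd6-/- stroma. With RANKL it was 16.9 and 21.1 FPKM in WT and 16.3 and 15.2 FPKM in Jmjd6-/- stroma. All RANKL libraries were well above the unstimulated libraries, by 12.3-fold in WT and 13.1-fold in Jmjd6-/- stroma on the means. The log2 difference was 3.57 ± 0.13 (SE, adjusted p = 3.96e-05).

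Without stimulation Dnmt3l was listed at 0 in the WT library and at 0.143 FPKM in the Jmjd6-/- library. RANKL libraries had it at 1.45 and 1.63 FPKM in WT and 1.79 and 1.19 FPKM in Jmjd6-/- stroma. The groups did not overlap, but the RANKL level remained low, at roughly 39.1 to 78.8 fragments per library. The log2 difference was 3.36 ± 0.36 (SE, adjusted p = 0.00181), and it depended on the added constant, running from 1.23 to 5.27 over the alternative settings.

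Dnmt3l and Aire overlap on chromosome 10. The Aire gene spans chr10:78030022-78043610 on the minus strand and Dnmt3l spans chr10:78041947-78063622 on the plus strand (mm10), an overlap of 1664 bases. The first of the 14 exons of the principal Dnmt3l transcript lies in intron 3 of Aire, the sequence printed for Dnmt3l covers all 75 bases of Aire exon 4, and no exon base is shared between the principal models. The gene table gives both entries the same interval. The library kit does not mark strand, so reads from Dnmt3l and from unspliced Aire RNA cannot be told apart where the genes overlap. With RANKL, the Dnmt3l level was 1.86% and 2.05% of the Aire level in WT and 2.39% and 1.78% in Jmjd6-/- stroma. Without RANKL it was 0% in WT and 30.3% in Jmjd6-/- stroma, the latter on roughly 3.7 Dnmt3l fragments.

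**Figure D1:**
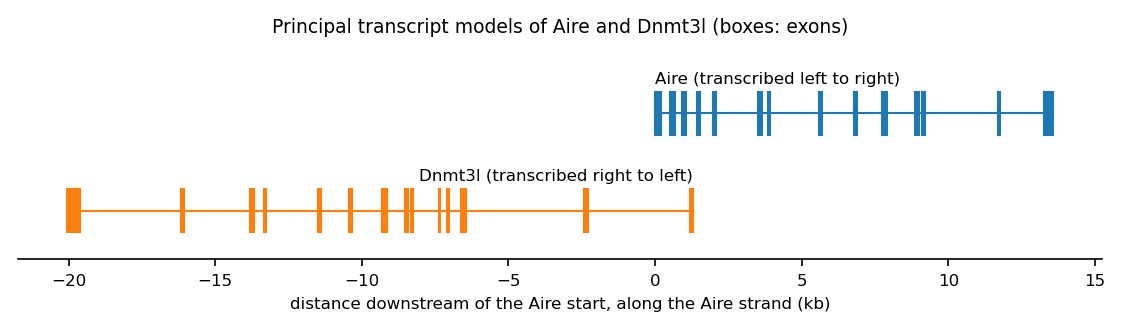
Exons of the principal Aire and Dnmt3l transcripts (boxes) on an axis of distance in kb from the Aire start, along the Aire strand. The start of Dnmt3l lies inside Aire, in intron 3, and the other 13 Dnmt3l exons lie ahead of the Aire start.

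Sirt1 was higher with RANKL by a smaller step from a higher base. Without RANKL it stood at 16.1 FPKM in the WT library and 17.5 FPKM in the Jmjd6-/- library. With RANKL it was 36.9 and 23.7 FPKM in WT and 29.4 and 29.7 FPKM in Jmjd6-/- stroma. All 4 RANKL values lay above both unstimulated values, and the WT replicates differed more than the genotypes did. The log2 difference was 0.82 ± 0.17 (SE, adjusted p = 0.0238). This call was lost in 7 of 15 alternative settings, with adjusted p up to 0.258 when the unstimulated WT library was left out and 0.142 without the unstimulated Jmjd6-/- library. It was also lost without either Jmjd6-/- RANKL library (0.0716 and 0.0673).

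The other 5 genes did not pass the test. Top1 was at 66.6 and 69.0 FPKM in unstimulated WT and Jmjd6-/- stroma, at 63.4 and 47.0 FPKM in WT with RANKL, and at 60.2 and 65.2 FPKM in Jmjd6-/- stroma with RANKL. All 4 RANKL values of Top1 lay below both unstimulated values, with a log2 difference of -0.21 (95% interval -0.53 to 0.10). Chd4 was at 45.1 and 50.9 FPKM in unstimulated WT and Jmjd6-/- stroma, at 43.5 and 42.6 FPKM in WT with RANKL, and at 48.0 and 48.3 FPKM in Jmjd6-/- stroma with RANKL. Its interval was narrow, from -0.25 to 0.10 on the log2 scale. Deaf1 was at 10.2 and 9.65 FPKM in unstimulated WT and Jmjd6-/- stroma, at 9.86 and 11.6 FPKM in WT with RANKL, and at 9.32 and 8.56 FPKM in Jmjd6-/- stroma with RANKL, and its interval was from -0.30 to 0.27.

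Prkdc and Hipk2 had the lowest levels of these 5 genes, and 1 library stood apart in each. Prkdc was at 4.96 and 5.04 FPKM in unstimulated WT and Jmjd6-/- stroma, at 5.34 and 2.76 FPKM in WT with RANKL, and at 4.82 and 4.75 FPKM in Jmjd6-/- stroma with RANKL. Hipk2 was at 2.78 and 3.97 FPKM in unstimulated WT and Jmjd6-/- stroma, at 4.79 and 1.41 FPKM in WT with RANKL, and at 3.88 and 3.55 FPKM in Jmjd6-/- stroma with RANKL. In both genes the second WT RANKL library was the lowest of the 6, as it was for Top1 and, by a small margin, Chd4. The RANKL intervals were correspondingly wide, -0.83 to 0.39 for Prkdc and -1.10 to 0.92 for Hipk2. Hipk2 shares 762 bases with Tbxas1, a thromboxane synthase gene on the opposite strand that has its own entry, at 0.416 to 1.42 FPKM.

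**Figure D2:**
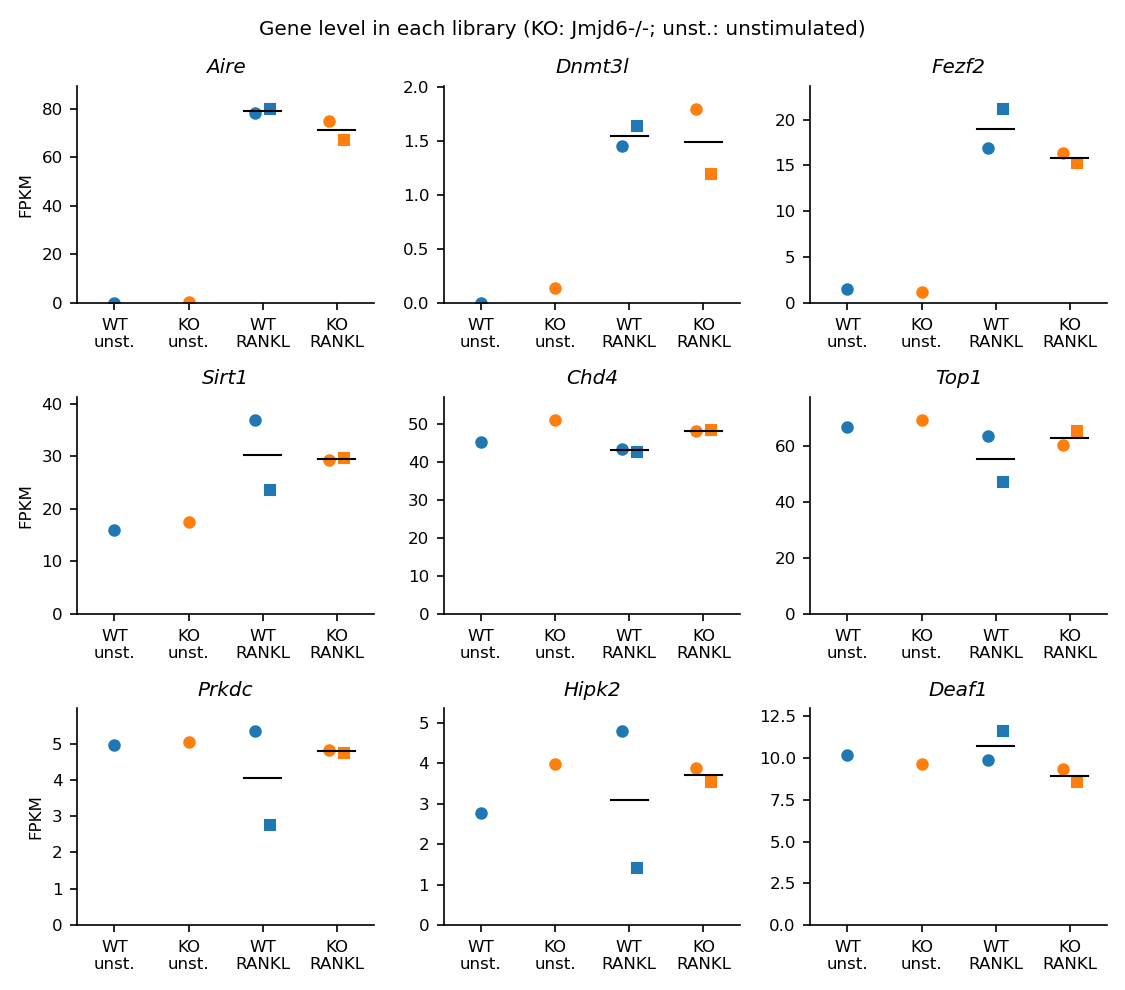
FPKM of the 9 genes in each library (points; the second replicate is a square), with a line at the mean of 2 replicates, on axes that start at 0. Aire, Dnmt3l and Fezf2 rise from near 0 with RANKL in both genotypes, and Sirt1 rises from 16.1 and 17.5 FPKM. The second WT RANKL library is lowest for Prkdc, Hipk2, Top1 and Chd4.

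By level, which FPKM gives per length, the order in unstimulated stroma was Top1, Chd4, Sirt1, Deaf1, Prkdc, Hipk2, Fezf2, Aire and Dnmt3l in both genotypes. With RANKL it was Aire, Top1, Chd4, Sirt1, Fezf2, Deaf1, Prkdc, Hipk2 and Dnmt3l in both genotypes. In WT RANKL stroma the means were 78.9, 55.2, 43.0, 30.3, 19.0, 10.7, 4.05, 3.10 and 1.54 FPKM in that order. The values of Prkdc and Hipk2 overlapped there, and so did those of Hipk2 and Dnmt3l. In Jmjd6-/- RANKL stroma no neighbours overlapped.

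The second question was whether loss of Jmjd6 changed the genes in RANKL-stimulated stroma. None of the 9 was called between genotypes in a limma fit of the 4 condition means to the same values, where 2.34% of all genes tested were called, and 2987 genes had an unadjusted p under 0.05. Aire averaged 78.9 ± 1.21 FPKM in WT and 71.1 ± 5.65 FPKM in Jmjd6-/- stroma (SD, n = 2 each), a log2 difference of -0.15 with a 95% interval of -0.48 to 0.17 and an adjusted p of 0.61. Fezf2 averaged 19.0 ± 3.02 and 15.8 ± 0.772 FPKM (SD, n = 2 each), a log2 difference of -0.26 (interval -0.68 to 0.17). For both genes the Jmjd6-/- values lay below the WT values, as they did for Deaf1 (-0.26, interval -0.63 to 0.12), while those of Chd4 lay above (0.16, interval -0.09 to 0.42). So 4 of 9 genes had groups that did not overlap, against 50.7% of all genes tested. An FPKM value for a whole gene does not separate spliced transcripts from those that keep an intron.

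The other 5 genes overlapped between genotypes, and for 4 of them the estimate turned on the WT replicates. The log2 difference between Jmjd6-/- and WT was 0.49 for Hipk2 (interval -0.87 to 1.84), 0.31 for Prkdc (-0.50 to 1.11), 0.20 for Top1 (-0.22 to 0.62) and 0.00 for Sirt1 (-0.55 to 0.55). For Dnmt3l it was -0.07 (-0.83 to 0.69). Without the first WT RANKL library, Hipk2, Prkdc, Top1 and Sirt1 were all called higher in Jmjd6-/- stroma, at log2 differences of 1.33, 0.77, 0.41 and 0.32 (adjusted p of 0.0331, 0.0344, 0.0425 and 0.0384). That fit called 25.1% of all genes tested, and 14.2% as higher in Jmjd6-/- stroma. Without the second they were -0.36, -0.16, -0.02 and -0.32, and none was called. In each of these fits the lone WT library is assumed to vary like the other groups.

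The WT RANKL replicates differed along transcript length. Over the genes with a transcript model, the median log2 ratio of the second to the first WT library was 0.362 in the bin of shortest transcripts and -0.436 in the bin of longest, of 10 equal bins. The Jmjd6-/- replicates ran from 0.034 to -0.036. The ratio also ran with GC content, from -0.411 in the bin lowest in GC to 0.278 in the highest. For the 4 genes it was -1.69 for Hipk2, -0.93 for Prkdc, -0.64 for Sirt1 and -0.43 for Top1, with longest transcripts of 7684, 12647, 4430 and 3856 bases. Chd4, with 6697 bases, was at -0.03. For Aire, with 1938 bases, it was 0.03. With the trend in length and GC taken out of each library, an alternative added after the data were seen, none of the 9 genes was called between genotypes. None was called in the reported fit either. This alternative used all 6 libraries, so it does not address the calls made without the first WT RANKL library. The part of the trend in the differences above was not tested.

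**Figure D3:**
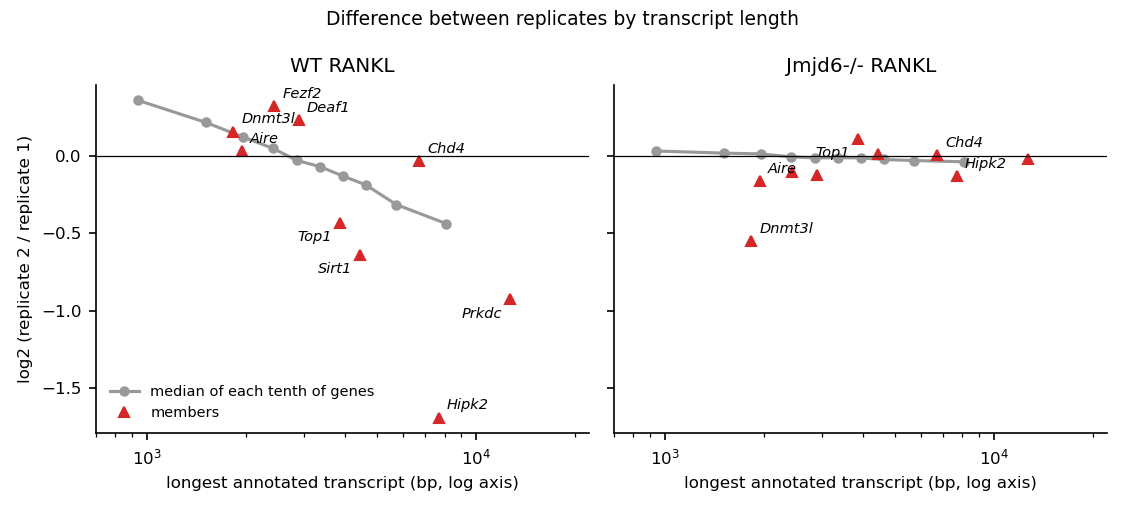
log2 ratio of the second to the first RANKL library against the longest transcript (bp, log axis), for WT and Jmjd6-/- stroma. Grey points are medians of 10 equal bins of genes by length and red triangles are the 9 genes. The WT medians run from 0.362 to -0.436, with Hipk2, Prkdc, Sirt1 and Top1 below them, and the Jmjd6-/- medians stay near 0.

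The third question was whether the response to RANKL differed between genotypes. No gene of the 15894 was called (0%) for a difference in response after adjustment, and 664 had an unadjusted p under 0.05. Aire responded by 8.35 in WT and 6.95 in Jmjd6-/- stroma on the log2 scale, a difference of -1.39 (95% interval -1.96 to -0.83, unadjusted p = 0.00115, adjusted p = 0.712). Most of it lay in the unstimulated libraries, 1 per genotype, where Jmjd6-/- was 1.24 above WT on this scale (0.473 against 0.142 FPKM). It was -0.52 with an added constant of 1 and -1.82 with 0.01. Dnmt3l showed a difference of -1.35 (interval -2.66 to -0.04, adjusted p = 1.0), also with an unstimulated WT value of 0, and ran from -4.01 to -0.23 over the alternative settings. Fezf2 responded by 3.53 in WT and 3.60 in Jmjd6-/- stroma (difference 0.07, interval -0.66 to 0.81). For the other 6 genes the intervals included 0. The unstimulated libraries are assumed to vary like the RANKL libraries.

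**Figure D4:**
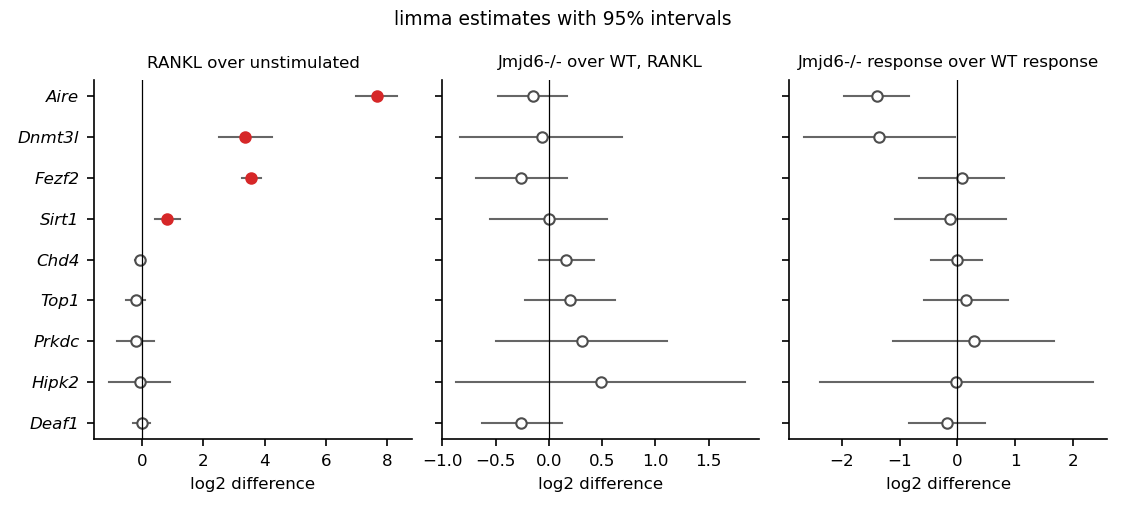
limma log2 differences with 95% intervals for the 9 genes, for RANKL over unstimulated (left), Jmjd6-/- over WT with RANKL (middle) and the difference in response (right). Filled points passed an adjusted p of 0.05, and these are Aire, Dnmt3l, Fezf2 and Sirt1 in the left panel only.

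The profiles of Aire and Fezf2 over the 6 libraries were compared with those of 12587 genes that averaged 1 FPKM or more, by the root mean square difference of log2 values centred on their own mean. With 2 unstimulated and 4 RANKL libraries such likeness mostly reflects the size of the rise. Closest to Aire were Calcb, a calcitonin gene-related peptide (0.33), Csn2, the milk protein beta-casein (0.62), Tnfrsf11b, a decoy receptor for RANKL (0.67), Cyp26a1, which degrades retinoic acid (0.67), and S100a8, a calcium-binding protein of myeloid cells (0.72). Of the 5, Csn2 and S100a8 also stand on the list of Aire-induced antigen genes below. Calcb was at 73.3 and 103 FPKM in WT and 103 and 92.1 FPKM in Jmjd6-/- stroma with RANKL. S100a8 was at 98.2 and 141 FPKM in WT and 58.5 and 65.5 FPKM in Jmjd6-/- stroma with RANKL. It was not called between genotypes (log2 difference -0.92, adjusted p = 0.0827). Csn2 was at 102 and 99.3 FPKM in WT and 38.7 and 33.1 FPKM in Jmjd6-/- stroma, so its level was lower in Jmjd6-/- stroma (log2 difference -1.49, adjusted p = 0.0279), a call lost without the second WT RANKL library or either Jmjd6-/- RANKL library (adjusted p up to 0.15). Closest to Fezf2 were Slit1, an axon guidance ligand (0.14), the chemokine receptor Ccr7 (0.15), Calca, which encodes calcitonin (0.15), Lsp1, an actin-binding protein of leukocytes (0.16), and Dio1, a thyroid hormone deiodinase (0.18). Within the 9 genes, Dnmt3l was the nearest to Fezf2 (0.50), and Fezf2 was the nearest to Aire (1.98).

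**Figure D5:**
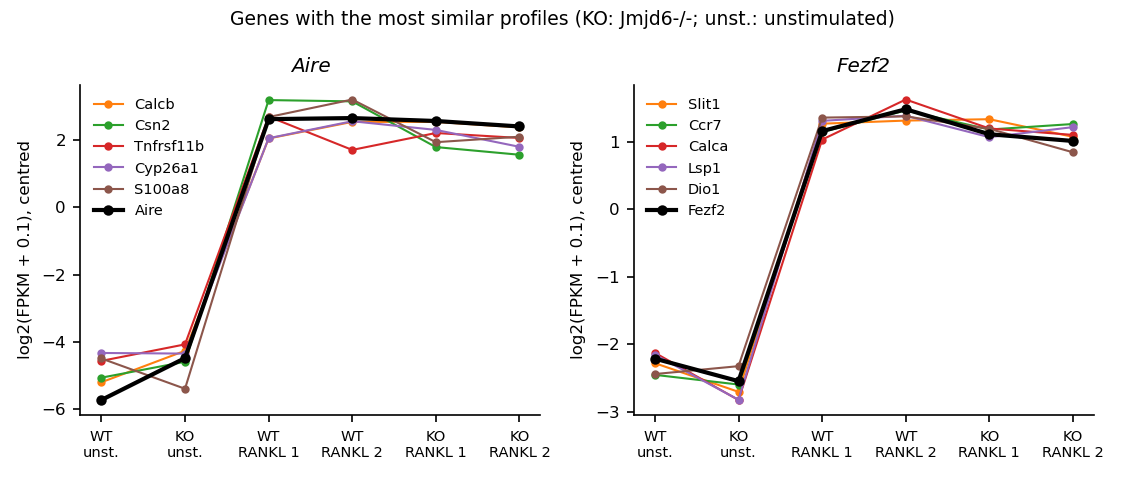
log2(FPKM + 0.1) centred on each gene's own mean in the 6 libraries, for Aire and Fezf2 (black) and the 5 genes whose profiles differ least from each. All sit low in the unstimulated and high in the RANKL libraries. Among the 5 genes closest to Aire, Csn2 and S100a8 are lower in the Jmjd6-/- than in the WT RANKL libraries.

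Relatives and further partners of the members were set beside them. Over 8 lists of such genes (cofactors bound by Aire, NuRD subunits, DNA end-joining factors, topoisomerases, DNA methyltransferases and Uhrf genes, SAND domain genes, sirtuins and homeodomain-interacting kinases), all 65 genes were tested and 7 rose with RANKL and none fell, a share close to the 10.5% that rose among all genes tested. The median log2 difference was -0.08 against -0.02 over all genes. None of 13 NuRD genes, of 8 end-joining genes, of 6 other sirtuins or of 3 other homeodomain-interacting kinases passed the test with RANKL. Uhrf1, which recruits maintenance methylation to replicating DNA, rose by 1.81 ± 0.17 (log2, SE; adjusted p = 0.000941), from 6.94 and 4.82 FPKM to 32.0, 21.5, 15.5 and 16.7 FPKM. Top2a, a topoisomerase of dividing cells that also stands among the proliferation markers, rose by 1.00 (adjusted p = 0.0339), and Parp1, a poly(ADP-ribose) polymerase, by 0.49 (adjusted p = 0.0151). The mitochondrial topoisomerase Top1mt rose by 0.50 (adjusted p = 0.04). The Uhrf1 call held in all 15 alternatives. The calls of Top2a, Parp1 and Top1mt were lost without either Jmjd6-/- RANKL library or either unstimulated library (adjusted p up to 0.258, 0.23 and 0.426).

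Between genotypes, 2 of the 65 genes were lower in Jmjd6-/- stroma and none was higher, a count near the 2.34% called among all genes tested. Both are among the 5 further SAND domain genes listed. Sp100, a component of nuclear bodies, was at 32.6 and 33.7 FPKM in WT and 16.3 and 14.2 FPKM in Jmjd6-/- stroma with RANKL (log2 difference -1.12, adjusted p = 0.028), and stood at 19.3 and 6.46 FPKM without RANKL. Sp110, also a nuclear body protein, was at 21.8 and 27.7 FPKM against 11.0 and 8.81 FPKM (-1.31, adjusted p = 0.0393). The related Sp140 was at 10.4 and 11.2 FPKM against 7.14 and 6.76 FPKM (-0.63, adjusted p = 0.089). All 3 rose with RANKL, by 1.00, 0.68 and 0.50 on the log2 scale, but the RANKL calls of Sp110 and Sp140 were lost without either Jmjd6-/- RANKL library or either unstimulated library (adjusted p up to 0.281 and 0.228). The other listed SAND domain genes, Gmeb1 and Gmeb2, did not pass the test in either comparison (0.23 and 0.18 between genotypes, -0.06 and 0.04 with RANKL). Neither Sp100 nor Sp110 was called between genotypes when the second WT RANKL library or either Jmjd6-/- RANKL library was left out (adjusted p up to 0.174 and 0.204).

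Antigen genes known to be induced by Aire and by Fezf2 were set beside their regulators. Of 10 genes on the Aire list, 7 were tested. With RANKL, 4 of them rose. In Jmjd6-/- stroma Spt1 (log2 difference -4.19), Tff3 (-3.13), Pcp4 (-2.95) and Csn2 (-1.49) were lower, with Spt1 sharing its entry with Mucl1. Ins2 and Chrna1 reached the filter on low values only through the WT RANKL libraries, so their direction was fixed by it, and the 4 genes named were called among the 5 that pass it without those libraries. By real-time PCR, the study reported Ins2 and Spt1 as reduced without Jmjd6 in RANKL-stimulated stroma and in fetal thymi. It also reported Aire-dependent antigen genes, Ins2 and Spt1 among them, as reduced in these same libraries. The list was also chosen with earlier results of these data known, so its counts are not independent support. Over all genes tested, 10.5% rose with RANKL and 2.34% were called between genotypes. Tff3, a mucosal peptide, was at 5.90 and 8.21 FPKM in WT and 1.19 and 0.409 FPKM in Jmjd6-/- stroma with RANKL. All 4 calls between genotypes were lost with no filter on low values, where only 2 of all genes were called. The call of Tff3 was lost in 7 of 14 alternatives. Those of Tff3, Pcp4 and Csn2 were lost without the second WT RANKL library. Those of Tff3 and Csn2 were also lost without the second Jmjd6-/- RANKL library. Of 8 genes on the Fezf2 list, 7 were tested. Calb1, a calcium-binding protein, rose with RANKL (2.22, adjusted p = 0.00431), a call lost without the unstimulated WT library. None of the 7 was called between genotypes, with log2 differences from -1.87 (Ttr) to 1.08 (Maoa), 3 above 0 and 4 below. Ttr and Apob reached the filter on low values only through the WT RANKL libraries, so their direction was fixed by it. Whether the lists differ from each other was not tested.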

How the data were processed

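Poly(A) RNA libraries (TruSeq RNA kit, strand not marked) were mapped by the authors to mm10 with TopHat2 2.0.10, and Cufflinks 2.1.1 gave the deposited FPKM values per gene, with a library type for stranded kits set. No counts were used here. Depth was estimated from the steps of low FPKM values and is approximate. Groups came from the sample labels. limma 3.58.1 (R 4.3.3, trend) was fitted to log2(FPKM + 0.1) of 15894 genes averaging 0.1 FPKM or more, using Benjamini-Hochberg adjustment over all of them and a threshold of 0.05. RANKL was tested with genotype and RANKL as terms, and genotype and the difference in response in a separate fit of the 4 condition means. The fits were also run on simulated data with no length or GC trend and with changes larger than the members' genotype differences. That run does not bear on smaller differences. An exact permutation test cannot go below 0.0667 for 4 against 2 libraries or 0.333 for 2 against 2, so none was used. Alternatives were another added constant, another or no filter, no trend, other scalings, each library left out, a replicate block, and the RANKL libraries fitted alone.

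The members and lists were chosen with earlier results of these data known. Named genes were the members, the 5 most alike to Aire and to Fezf2, up to 4 called genes per list with the largest change, genes overlapping a member, and Jmjd6. Gene models were GENCODE on GRCm38 and promoter sequences RefSeq on GRCm38.p6, matched by symbol for 8 of 9 members.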

Additional observations from a re-analysis of the deposited data

How the results depend on the processing

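The number of members higher with RANKL stayed at 4 or 3, Sirt1 being the gene lost, and Aire, Fezf2 and Dnmt3l were called in all 15 alternatives. Sirt1 had an adjusted p of 0.14 with no filter, 0.0629 without trend and 0.0565 with libraries scaled to equal totals, and 0.0673 to 0.258 without a Jmjd6-/- RANKL or an unstimulated library. The number of members called between genotypes was 0 in all alternatives but 1, with a range of 0 to 4 when 1 library was left out.

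The RANKL estimate changed sign for Deaf1 under the median ratio scaling (0.018) and, leaving out 1 library, for Hipk2 (-0.452 to 0.273), Deaf1 (-0.111 to 0.074) and Prkdc (-0.395 to 0.002). Between genotypes it changed sign leaving out 1 library for Hipk2 (-0.361 to 1.332), Prkdc (-0.155 to 0.771), Top1 (-0.018 to 0.414), Sirt1 (-0.318 to 0.319, from 0.00) and Dnmt3l (-0.343 to 0.206), and for Dnmt3l with the length and GC trend taken out (0.044). Sirt1, at 0.00 between genotypes, was also at -0.001 with an added constant of 1, -0.012 with equal totals, -0.028 with the median ratio scaling and -0.086 with the length and GC trend taken out. The difference in response changed sign for Fezf2 with an added constant of 1 (-0.04) and, leaving out 1 library, for Fezf2 (-0.087 to 0.237), Chd4 (-0.028 to 0.002), Hipk2 (-0.862 to 0.831), Sirt1 (-0.438 to 0.199), Prkdc (-0.177 to 0.749) and Top1 (-0.07 to 0.361). None of these genes was called in the comparison in which its sign changed, with all libraries and the reported settings.

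Counts over all genes moved widely. Genes higher with RANKL (1675) were 788 with no filter and 623 to 2165 with 1 library left out. Genes lower (654) were 299 with no filter, 398 without trend, 2989 with the length and GC trend taken out, and 54 to 1478 with 1 library left out. Genes called between genotypes (372) were 2 with no filter, 241 with an added constant of 0.01, 231 with a filter at a mean of 1 FPKM, 1065 with the length and GC trend taken out, and 88 to 3991 with 1 library left out. Genes called for a difference in response (0) were 176 with no filter and 0 to 5 with 1 library left out. The cause was not tested.

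The sample titles do not say whether the replicate numbers pair the samples. Replicate differences of WT and Jmjd6-/- correlated at -0.077 over 11751 genes. This cannot decide it, since the WT difference carries a length and GC trend that the Jmjd6-/- difference largely lacks. With a replicate block, 315 genes were lower with RANKL, 1477 were called between genotypes and 94 for a difference in response, and 1 member, Aire, was then called for a difference in response (-1.395, adjusted p = 0.0486). The RANKL estimate was 0.367 for Hipk2 and 0.019 for Prkdc. With the block, the fit of the condition means has 1 residual degree of freedom, against 2 without the block. Its prior degrees of freedom, the weight limma gives to the spread shared over all genes, moved the other way. They were 32.3 with the block and 3.46 without it. The part of this rise in the calls made with the block was not tested. The depth of single genes is approximate, and values near zero, such as unstimulated Aire and Dnmt3l, rest on few fragments.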
